A study of Mus musculus with 28 samples.

Results

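Interferon-stimulated genes, whose transcription interferon switches on, were followed in the CA1 field of the mouse hippocampus by 8 members, Isg15, Usp18, Irf7, Ifit1, Ifit3, Oasl2, Bst2 and Ifitm3. They were chosen by name and matched by symbol to the gene identifiers of the deposited count tables, which hold 48709 genes, and all 8 are among the 17009 that passed the low-count filter and were tested. The transgenic mice carry CamkIIδC, a splice form of the delta chain of CaM kinase II, and as background this line is used as a model of heart failure because the kinase is made in heart muscle. Of the 28 libraries, 9 came from transgenic mice that drank vorinostat, 9 from transgenic mice that drank vehicle and 10 from wildtype littermates that drank vehicle. Vorinostat is an inhibitor of histone deacetylases. Drinking began at 2 months of age and lasted 4 weeks, and CA1 was taken at 3 months from mice of both sexes. All groups shared the route by drinking water, and a wildtype group on vorinostat was not analysed here. Nothing in the labels ties a library to a mouse of its own, so the p-values reflect the spread between libraries, and that spread may be technical.

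Type I interferons bind a receptor of the subunits Ifnar1 and Ifnar2, which carries the kinases Jak1 and Tyk2. The signal ends at the interferon-stimulated response element in the promoters of its targets. In the brain, microglia, astrocytes and the cells of blood vessels are known to carry out this response, and a low tonic level is present without infection. Isg15 is a ubiquitin-like protein that is joined to other proteins, and Usp18 removes it and also damps signalling at the receptor. Irf7 is the transcription factor that drives the interferon alpha genes. Ifit1 and Ifit3 belong to a family that binds foreign RNA and limits its translation, Oasl2 is a relative of the oligoadenylate synthetases, Bst2 (tetherin) holds budding viruses at the cell surface and Ifitm3 hinders viral fusion in endosomes.

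On GRCm38, the assembly also called mm10, the genes lie on 6 chromosomes (annotation GENCODE vM21). Isg15 (ENSMUSG00000035692) lies at chr4:156199424-156200818 on the minus strand, Oasl2 (ENSMUSG00000029561) at chr5:114896936-114912234 on the plus strand and Usp18 (ENSMUSG00000030107) at chr6:121245906-121270917 on the plus strand. Ifitm3 (ENSMUSG00000025492) lies at chr7:141009586-141010770 and Irf7 (ENSMUSG00000025498) at chr7:141262706-141266481, both on the minus strand. Bst2 (ENSMUSG00000046718) lies at chr8:71534255-71537456 on the minus strand, and Ifit3 (ENSMUSG00000074896) at chr19:34583531-34588731 and Ifit1 (ENSMUSG00000034459) at chr19:34640871-34650009, both on the plus strand.

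The promoter stretches of 4 of the genes are shown because they hold the letters of the response element, searched as GAAA, any 2 bases and GAAA on either strand (the reverse complement reads TTTC, any 2 bases, TTTC). The RefSeq promoter table (GRCm38.p6) holds 7 of the 8 genes. Usp18 is named only. Within 250 bases before to 50 bases after the transcription start, 5 of the 7 genes held a match, against 31 of 87 other interferon genes (35.6%) and 3.99% of all 27025 genes in that table. By promoter entry, 3.44% of 32851 held one. Capitals mark the matches, which overlap in Isg15 and Bst2, and all stretches read 5′ to 3′ on the strand of the gene.
Isg15, chr4:156200855-156200916, minus strand: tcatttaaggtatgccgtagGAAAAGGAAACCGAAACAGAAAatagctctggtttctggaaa
Bst2, chr8:71537567-71537622, minus strand: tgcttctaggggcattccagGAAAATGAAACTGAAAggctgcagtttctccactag
Ifit1, chr19:34640765-34640833, plus strand: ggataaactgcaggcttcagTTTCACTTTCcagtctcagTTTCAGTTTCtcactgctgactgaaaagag
Ifit3, chr19:34583353-34583436, plus strand: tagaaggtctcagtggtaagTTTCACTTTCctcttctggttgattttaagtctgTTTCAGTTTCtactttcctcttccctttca

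Isg15 held 3 matches between 78 and 57 bases before its start, and Bst2 held 2 between 130 and 115 bases before it. Ifit1 and Ifit3 held 2 each on the opposite strand, with the same pair of letters, TTTCACTTTC and then TTTCAGTTTC. The Ifit3 stretch is identical over all 84 bases to one before Ifit3b, the neighbouring copy, at chr19:34607749-34607832. Ifitm3 held its 2 matches just past its start, shown as 30-base sites because the transcribed part is kept short.
Ifitm3, chr7:141010723-141010752, minus strand: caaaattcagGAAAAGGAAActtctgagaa
Ifitm3, chr7:141010706-141010735, minus strand: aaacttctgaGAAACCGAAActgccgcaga
Irf7 and Oasl2 held no match in this window, which says only that these letters are not there.

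Totals ran from 20230085 to 33191857 counts per library, with a median of 23807060.5. A set of 4 libraries, transgenic vorinostat 6, 7 and 9 and wildtype vehicle 2, stood apart with 6.39 to 7.48% of counts in mitochondrial genes, against 2.84 to 4.11% in the other 24 libraries. Results that rest on them are given with and without them. All 6 markers of CA1 pyramidal neurons passed the low-count filter, and their summed level was 1864 to 2641 CPM (counts scaled to library size with TMM factors) with vorinostat, 2164 to 2969 in transgenic vehicle and 2202 to 2911 in wildtype vehicle. Of 8 leukocyte markers 1 passed the filter, and their sum was 2.76 to 5.56 CPM. In bulk tissue, fewer cells of a type and less RNA per cell cannot be told apart.

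All 8 genes were detected in all 28 libraries and passed the filter, at low levels. Counts per library ran from 6 for Usp18 to 173 for Ifitm3. Of the 17009 genes tested, 4.67% had a lower mean log2 CPM than Usp18 and 27.5% a lower one than Ifitm3. Per kilobase of exon (RPKM), Ifitm3 stood highest, with 5.24 ± 1.40 with vorinostat, 5.33 ± 1.05 in transgenic vehicle and 4.97 ± 1.30 in wildtype vehicle (SD, n = 9, 9 and 10). Isg15 was next at a mean of 1.40 RPKM over all libraries and Bst2 followed at 1.27 RPKM, a gap smaller than the SD of either gene in each group. Below them came Ifit3 at 0.597, Ifit1 at 0.383, Oasl2 at 0.272, Irf7 at 0.269 and Usp18 at 0.179 RPKM, where Oasl2 and Irf7 also lay within the SD of either gene in each group.

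The counts of some members are shared with other genes. Of all 50-base stretches of Ifit3 transcripts, 51.2% are also in Ifit3b, so how reads were split between these copies is uncertain. The share was 10.02% for Ifitm3, with Ifitm1, Ifitm2 and pseudogenes among the others, and 7.13% for Ifit1, mostly with Ifit1bl2. It was 3.96% for Isg15, 2.81% for Usp18 and 0.138% for Oasl2, and 0 for Irf7 and Bst2. Irf7 shares 45 exon bases with Phrf1 and Usp18 shares 124 with Gm44148, each on the opposite strand, and the kit does not keep the strand.

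**Figure D1:**
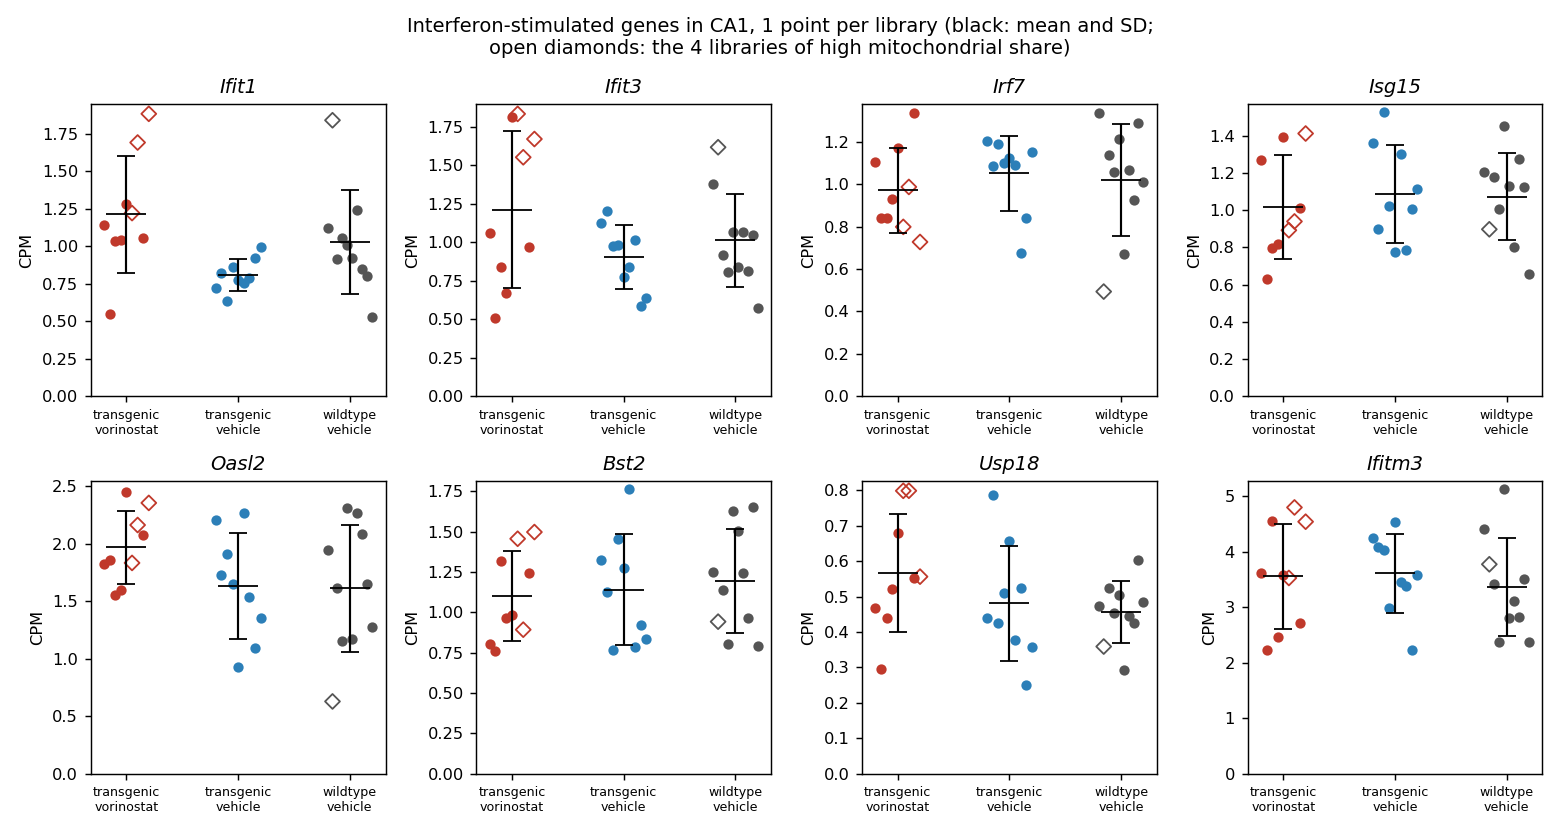
Level of each of the 8 genes (y axis, CPM) in every library, with transgenic vorinostat on the left, transgenic vehicle in the middle and wildtype vehicle on the right; black marks are the mean and SD and open diamonds the 4 libraries of high mitochondrial share. The groups overlap for all 8 genes, and for Ifit1 the diamonds span 1.22 to 1.88 CPM where the other 24 libraries span 0.528 to 1.28 CPM.

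The modifier system and the transcription factor overlapped between the 3 groups. Isg15, the modifier, had a lowest, median and highest level of 0.632, 0.940 and 1.41 CPM with vorinostat, 0.775, 1.02 and 1.53 CPM in transgenic vehicle and 0.660, 1.13 and 1.45 CPM in wildtype vehicle. Usp18, its protease, had 0.295, 0.552 and 0.799 CPM with vorinostat, 0.252, 0.441 and 0.787 CPM in transgenic vehicle and 0.293, 0.463 and 0.604 CPM in wildtype vehicle. Irf7, the transcription factor, had 0.728, 0.930 and 1.33 CPM with vorinostat, 0.674, 1.101 and 1.202 CPM in transgenic vehicle and 0.494, 1.06 and 1.34 CPM in wildtype vehicle. For each of these genes the groups overlapped over most of their range. The lowest Irf7 library was wildtype vehicle 2, one of the 4 that stood apart.

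Among the effectors, the groups overlapped too. Ifit1 had a lowest, median and highest level of 0.548, 1.15 and 1.88 CPM with vorinostat, 0.637, 0.787 and 0.993 CPM in transgenic vehicle and 0.528, 0.964 and 1.84 CPM in wildtype vehicle. Ifit3 had 0.506, 1.06 and 1.83 CPM with vorinostat, 0.587, 0.976 and 1.1996 CPM in transgenic vehicle and 0.572, 0.983 and 1.62 CPM in wildtype vehicle. Oasl2 had 1.56, 1.85 and 2.45 CPM with vorinostat, 0.929, 1.65 and 2.27 CPM in transgenic vehicle and 0.628, 1.63 and 2.31 CPM in wildtype vehicle. The transgenic vehicle group was the tightest for Ifit1, and all 9 of its libraries lay below the wildtype mean of 1.03 CPM. That mean includes wildtype vehicle 2 at 1.84 CPM, one of the 4 libraries of high mitochondrial share. The wildtype median of 0.964 CPM lay below the highest transgenic vehicle library at 0.993 CPM. The 4 libraries of high mitochondrial share were at 1.22 to 1.88 CPM for Ifit1, against 0.528 to 1.28 CPM in the other 24, and at 1.55 to 1.83 CPM for Ifit3, against 0.506 to 1.81 CPM in the other 24.

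The membrane proteins that block virus entry and release overlapped between the groups as well. Ifitm3 had a lowest, median and highest level of 2.23, 3.58 and 4.79 CPM with vorinostat, 2.22, 3.58 and 4.53 CPM in transgenic vehicle and 2.36, 3.26 and 5.12 CPM in wildtype vehicle. Bst2 had 0.758, 0.981 and 1.498 CPM with vorinostat, 0.764, 1.12 and 1.76 CPM in transgenic vehicle and 0.792, 1.19 and 1.65 CPM in wildtype vehicle. The ranges of the 3 groups shared most of their length for both genes, and the highest Bst2 library was in transgenic vehicle.

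The sum of the 8 genes per library had a lowest, median and highest value of 7.67, 11.4 and 14.6 CPM with vorinostat, 7.84, 10.8 and 12.6 CPM in transgenic vehicle and 7.70, 10.7 and 14.3 CPM in wildtype vehicle. Ifitm3 makes up much of this sum. Transgenic vorinostat 9 had the highest sum and was among the top 3 libraries for 4 genes, and transgenic vorinostat 2 had the lowest and was among the bottom 3 for 6 genes. The highest and the lowest library were thus in the same group.

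Spread between libraries was above that of the median gene for 6 of the 8 members and close to it for the other 2. That median covers genes of all levels, while the members lie low among them, and genes of like level were not compared. The biological coefficient of variation that edgeR estimates was 0.259 for Ifit3, 0.227 for Oasl2, 0.214 for Ifitm3, 0.199 for Bst2, 0.198 for Ifit1 and 0.162 for Isg15, against a median of 0.116 over all tested genes. For Irf7 and Usp18 it was 0.118 and 0.119, close to that median. The SD of log2 CPM within groups was 0.354 for Ifitm3, where counting error alone gives 0.162, and 0.420 for Oasl2, where it gives 0.236. For Irf7 the SD was 0.320 and counting error alone gives 0.300, so its spread was near the counting limit. Usp18, with a median of 11 counts, had an SD of 0.352 against 0.433 for counting error, and the prior count of 2 in the log lowers the SD of so low a gene.

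The comparison of transgenic with wildtype mice, both on vehicle, asks whether this heart failure model shifts the interferon response of CA1. No member passed the edgeR test at an adjusted p under 0.05, and neither did any of the 17009 genes (0 called, 0%). At an unadjusted p under 0.05 it was 0 of the 8 members against 1.33% of all genes, and DESeq2 and voom also called 0 members and 0 genes. Ifit1 averaged 0.809 ± 0.107 CPM in transgenic vehicle (SD, n = 9) and 1.03 ± 0.345 CPM in wildtype vehicle (SD, n = 10). The log2 fold change was -0.34 (SE 0.186, 95% interval -0.72 to 0.04, edgeR p = 0.0781). Without wildtype vehicle 2 alone this value was -0.21. Ifit3 had -0.16 (SE 0.215) and Bst2 -0.08 (SE 0.175). The other 5 members lay between 0.00 for Isg15 and Oasl2 and 0.09 for Ifitm3, and every member's adjusted p was 0.9998 by edgeR. The 95% intervals of the 8 members ran from -0.72 to 0.47 in all, which leaves changes of the size inside them undetected in these libraries. Of 12 microglia markers 11 were negative, with a median of -0.04 (8 and -0.01 without the 4 libraries of high mitochondrial share). Of 10 endothelial markers 6 were negative, with a median of -0.05 (10 and -0.07), and of 4 erythroid markers tested 3 were positive, with a median of 0.01 (4 and 0.36). All 6 astrocyte and all 6 oligodendrocyte markers were positive, with medians of 0.04 and 0.15.

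Within the transgenic line, vorinostat was set against vehicle to see what the inhibitor does to the same genes. By edgeR no member and 0 of 17009 genes (0%) passed the adjusted threshold. DESeq2 called 0 members and 1 gene and voom called 0 of both. Ifit1 alone had an unadjusted p under 0.05, 1 of 8 members against 14.4% of all genes, a share near that background. Ifit1 averaged 1.21 ± 0.390 CPM with vorinostat and 0.809 ± 0.107 CPM in transgenic vehicle (n = 9 libraries a group, ± SD). The log2 fold change was 0.58 (SE 0.187, 95% interval 0.19 to 0.96, edgeR p = 0.0044, adjusted p = 0.345). Of 9 vorinostat libraries 8 were above the transgenic vehicle mean. Without the 4 libraries of high mitochondrial share Ifit1 had 0.33 (edgeR p = 0.0556, adjusted p = 0.966). Over its alternatives, which include other marker covariates, the value of Ifit1 ran from 0.26 to 0.64 and the adjusted p from 0.0698 to 0.966. The 0.26 is the limma difference on the authors' adjusted values, in their own log units.

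Ifit3 averaged 1.21 ± 0.510 CPM with vorinostat and 0.903 ± 0.209 CPM in transgenic vehicle (n = 9 libraries a group, ± SD). Its log2 fold change was 0.41 (SE 0.217, edgeR p = 0.0674, adjusted p = 0.352), and 0.11 without the 4 libraries. Oasl2 had 0.27 (SE 0.183) with 7 of 9 vorinostat libraries above the transgenic vehicle mean, and Usp18 had 0.22 (SE 0.191) with 6 of 9. Neither passed the test, and without the 4 libraries Oasl2 had 0.21 and Usp18 0.02. The remaining 4 members were near 0, with Ifitm3 at -0.03, Bst2 at -0.05, Isg15 at -0.09 and Irf7 at -0.11. Without the 4 libraries these had -0.18, -0.17, -0.13 and -0.03 in the same order of genes. The vehicle libraries of this comparison are those of the comparison with wildtype, so the opposite signs of Ifit1 share the same 9 libraries.

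Marker genes of other cells are given beside these values. Of 12 microglia markers 10 had a positive log2 fold change, with a median of 0.08, and 3 of 12 without the 4 libraries, with a median of -0.07. All 12 passed the filter, and their summed level was 343 to 496 CPM with vorinostat and 358 to 447 CPM in transgenic vehicle. With the microglia marker mean as a covariate Ifit1 had 0.43 (edgeR p = 0.0111, adjusted p = 0.440). Of 5 erythroid markers 4 passed the filter, and these 4 were positive, with a median of 0.85 (0.40 without the 4 libraries) and a sum of 36.7 to 135 CPM with vorinostat and 17.9 to 46.1 CPM in transgenic vehicle. Of 10 endothelial markers 8 were positive, with a median of 0.12 (10 of 10 and 0.14 without the 4 libraries) and a sum of 201 to 255 CPM with vorinostat and 177 to 234 CPM in transgenic vehicle. Of 6 CA1 pyramidal markers 5 were negative, with a median of -0.16, and 4 without the 4 libraries, with a median of -0.02. Medians were 0.01 for astrocyte, -0.04 for oligodendrocyte, 0.02 for pericyte and smooth muscle, -0.13 for fibroblast and -0.05 for choroid plexus markers. Without the 4 libraries these were -0.09, -0.17, -0.06, -0.01 and -0.05 in the same order. The 1 leukocyte marker tested had 0.00 and, without the 4 libraries, -0.19. No marker gene passed the adjusted threshold. Across the 28 libraries, with group means removed, Ifit1 had r = 0.51 with the erythroid marker mean (permutation adjusted p = 0.0595), and 0.004 in the 24 libraries. Beyond that relation, the part of red blood cells in the level of Ifit1 was not tested.

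The comparison of vorinostat with wildtype vehicle asks whether treated transgenic mice stand at the level of untreated littermates. By edgeR 0 of 8 members and 0 of 17009 genes (0%) were called, and at an unadjusted p under 0.05 it was 0 of 8 members against 12.6% of all genes. DESeq2 and voom called 0 members and 0 genes. Usp18 came first by the test, with 0.567 ± 0.167 CPM with vorinostat (SD, n = 9) and 0.456 ± 0.0863 CPM in wildtype vehicle (SD, n = 10). Its log2 fold change was 0.30 (SE 0.189, edgeR p = 0.126, adjusted p = 0.453). Oasl2 had 0.27 (SE 0.179), Ifit3 0.25 (SE 0.210) and Ifit1 0.24 (SE 0.178). Ifitm3 had 0.07, Irf7 -0.08, Isg15 -0.09 and Bst2 -0.13. Without the 4 libraries Usp18 had 0.07, Oasl2 0.12, Ifit3 0.05 and Ifit1 0.12, while Ifitm3 had -0.07, Irf7 -0.07, Isg15 -0.16 and Bst2 -0.29, and none of the 8 was called. All 4 erythroid markers tested were positive, with a median of 0.89 (0.76 without the 4 libraries). Of 12 microglia markers 7 were positive, with a median of 0.01 (2 and -0.10), and of 10 endothelial markers 7, with a median of 0.09 (8 and 0.05). Of 6 CA1 pyramidal markers 5 were negative, with a median of -0.14 (5 and -0.02).

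**Figure D2:**
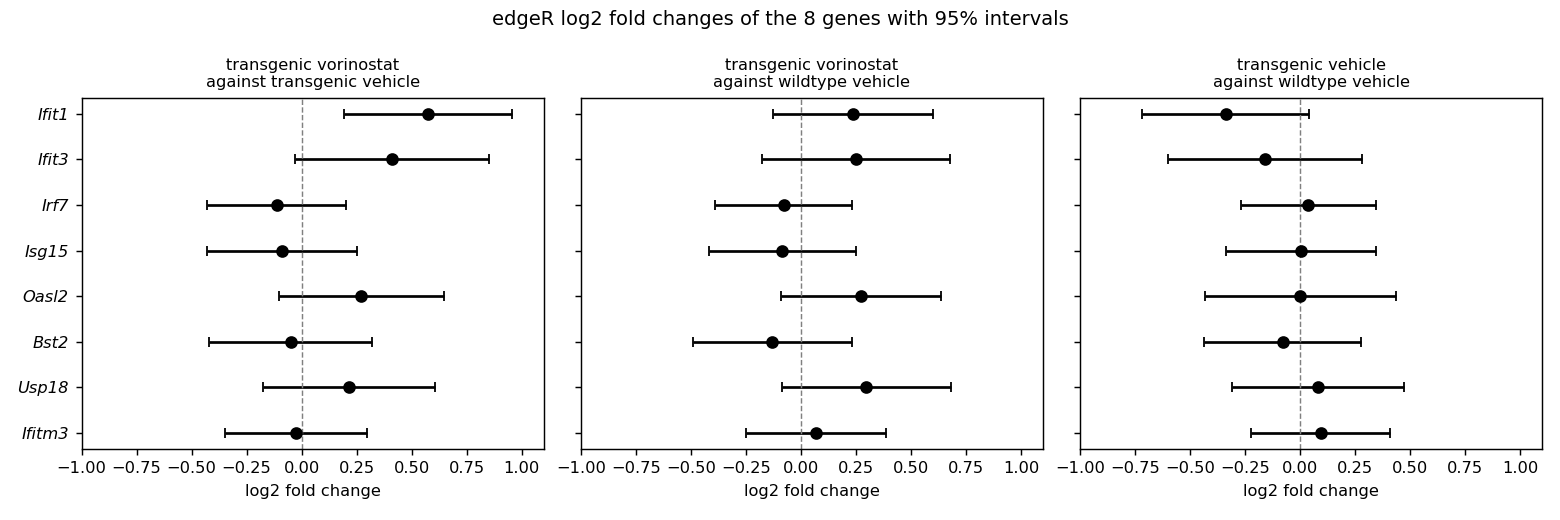
Log2 fold change of each gene (x axis) with its 95% interval by edgeR, for the 3 comparisons in panels. Of the 24 intervals shown, that of Ifit1 for transgenic vorinostat against transgenic vehicle, from 0.19 to 0.96, lies above 0 as a whole.

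The authors also deposited adjusted expression values from a mixed linear model on a log scale whose base is not given in the sources used here. In a limma test on these values, 3 members passed the threshold for vorinostat against wildtype vehicle, where 13.9% of 18014 genes did. These were Oasl2, with a difference of 0.32 (SE 0.0907, limma adjusted p = 0.0247), Ifit3 with 0.24 (SE 0.0765, adjusted p = 0.0390) and Usp18 with 0.14 (SE 0.0456, adjusted p = 0.0431), in the table's own log units. For vorinostat against transgenic vehicle 0 members passed where 0.222% of genes did, with Ifit1 at 0.26 (SE 0.0745, limma adjusted p = 0.0773). For transgenic against wildtype vehicle 0 members passed where 2.21% of genes did, at a smallest adjusted p of 0.198 for Ifit1. The terms that the authors' model removed are not given in the sources used here, so these calls and those on counts stand side by side.

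The wider pathway was read from lists of 109 other interferon genes, of which 81 passed the filter, and 0 of the 81 were called by edgeR in any of the 3 comparisons. Of the ligands, 10 interferon genes, 0 passed the filter. Their highest count in any library was 2, and Ifna1, Ifna4, Ifng, Ifnl2 and Ifnl3 had 0 counts in all 28 libraries, which allows up to 0.0904 to 0.148 CPM per library (3 counts). The ligands were therefore not detectable at this depth beyond single reads.

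For transgenic against wildtype vehicle, 34 of the 81 genes had a positive log2 fold change, with a median of -0.02, against 8523 of 17009 genes with a median of 0.00. At an unadjusted p under 0.05 there were 0 of the 81. Of the 20 genes of the interferon gamma and antigen presentation list 16 were negative and 4 positive, with a median of -0.11. Without the 4 libraries these counts were the same, with a median of -0.09. There 2 of the 20 had an unadjusted p under 0.05, both negative. Of 17292 genes 215 had such a p with a positive and 197 with a negative value. Of the 34 type I effectors 15 were positive, and of the 13 sensors and adaptors 9. The smallest p were those of genes of antigen presentation and of a guanosine triphosphatase. Tap1, the peptide transporter, averaged 4.15 ± 0.301 CPM in transgenic vehicle (SD, n = 9) and 4.84 ± 0.907 CPM in wildtype vehicle (SD, n = 10). Its log2 fold change was -0.22 (SE 0.114, edgeR p = 0.0598). H2-K1, a class I heavy chain, had -0.20 (SE 0.108) and Iigp1, an interferon-inducible guanosine triphosphatase, had -0.41 (SE 0.243).

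For vorinostat against transgenic vehicle, 54 of the 81 genes had a positive log2 fold change, with a median of 0.06, against 8654 of 17009 genes with a median of 0.00, and without the 4 libraries it was 49 of 83 with a median of 0.01. Of the 34 type I effectors 27 were positive, with a median of 0.12, and without the 4 libraries it was 19 of 35, with a median of 0.02. In the interferon gamma and antigen presentation list 13 of 20 were positive, with a median of 0.04, and 11 of 20 without the 4 libraries, with a median of 0.01. The effectors Samd9l, a restriction factor of poxviruses, and Ifit1bl1, a relative of Ifit1, and the RNA-activated kinase Eif2ak2 had the smallest p. Samd9l averaged 2.48 ± 0.601 CPM with vorinostat and 1.84 ± 0.455 CPM in transgenic vehicle (n = 9 libraries a group, ± SD). Its log2 fold change was 0.42 (SE 0.153, edgeR p = 0.00946, adjusted p = 0.345). Ifit1bl1 had 0.32 (SE 0.118) and Eif2ak2 0.22 (SE 0.0866), both at an edgeR adjusted p of 0.345. Of the 81 genes 8 had an unadjusted p under 0.05, a share of 9.88% where all genes gave 14.4%, and without the 4 libraries 2 of 83 did, where 242 of 17292 genes had such a p with a positive and 422 with a negative log2 fold change.

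For vorinostat against wildtype vehicle, 51 of the 81 genes were positive, with a median of 0.03, against 8795 of 17009 genes with a median of 0.01, and without the 4 libraries it was 41 of 83 with a median of -0.003. In the interferon gamma and antigen presentation list 8 of 20 were positive, with a median of -0.03, and 5 of 20 without the 4 libraries, with a median of -0.11. Tap1 averaged 3.86 ± 0.869 CPM with vorinostat (SD, n = 9) and 4.84 ± 0.907 CPM in wildtype vehicle (SD, n = 10). Its log2 fold change was -0.32 (SE 0.115, edgeR p = 0.00892, adjusted p = 0.384). Jak2, a kinase of interferon receptor signalling, had 0.15 (SE 0.0551) and Tlr7, an endosomal sensor of single-stranded RNA, had 0.32 (SE 0.131). Again 8 of the 81 genes (9.88%) had an unadjusted p under 0.05, where all genes gave 12.6%.

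Some pairs of members, with Ifit3 in 3 of the 6 that passed, varied together from library to library within groups. Over the 28 libraries, with group means removed, 25 of the 28 pairs of members had a positive Pearson r of log2 CPM, with a median of 0.31 and a range of -0.28 to 0.67. The p-values are from 100000 permutations, two-sided and adjusted over the 28 pairs, and 6 pairs passed by Pearson and 4 by Spearman. Since 4 libraries stand apart, each r is also given in the other 24, where again 6 pairs passed. Some r are further given without the 2 libraries farthest from the median of 1 gene of the pair. That gene was Ifit1 for Ifit1 with Ifit3, and Ifit3 for its pairs with Ifitm3 and Usp18. It was Isg15 for the pair with Oasl2 and Usp18 for the pair with Ifitm3. Extremes of the other gene were not left out by this rule. All members share the library and its depth, so these are relations across samples and not between conditions.

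Ifit3 was in 3 of the 6 pairs. Ifit3 with Ifit1 had r = 0.67 and rho = 0.54 (permutation p = 1e-04 and 0.00333, adjusted p = 0.0028 and 0.0311), with r = 0.50 without the 2 libraries farthest from the median and 0.52 in the 24 libraries (permutation adjusted p = 0.0454). Ifit3 with Ifitm3 had r = 0.66 and rho = 0.60 (permutation adjusted p = 0.00336 and 0.0288), with 0.56 without the 2 farthest and 0.63 in the 24. Ifit3 with Usp18 had r = 0.57 and rho = 0.52 (permutation adjusted p = 0.0133 and 0.0398), with 0.52 and 0.60 likewise. These 3 pairs passed in both sets of libraries.

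Isg15 with Oasl2 had r = 0.52 and rho = 0.55 (permutation adjusted p = 0.0250 and 0.0311), and r = 0.54 without the 2 farthest and 0.53 in the 24 libraries, where it also passed. Irf7 with Oasl2 had r = 0.57 and rho = 0.47 (permutation adjusted p = 0.0134 and 0.0668) but 0.43 in the 24 libraries (permutation adjusted p = 0.0817). Usp18 with Ifitm3 had r = 0.48 and rho = 0.39 (permutation adjusted p = 0.0463 and 0.138) and 0.24 without the 2 farthest libraries, so that relation rests on those libraries. Its r in the 24 libraries was 0.47 (permutation adjusted p = 0.0744). In the 24 libraries, Ifit3 also passed with Oasl2, at r = 0.58, and with Isg15, at r = 0.56 (permutation adjusted p = 0.0301 and 0.0314). Ifit1 and Irf7 had r = -0.28 over 28 libraries and 0.20 in the 24.

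**Figure D3:**
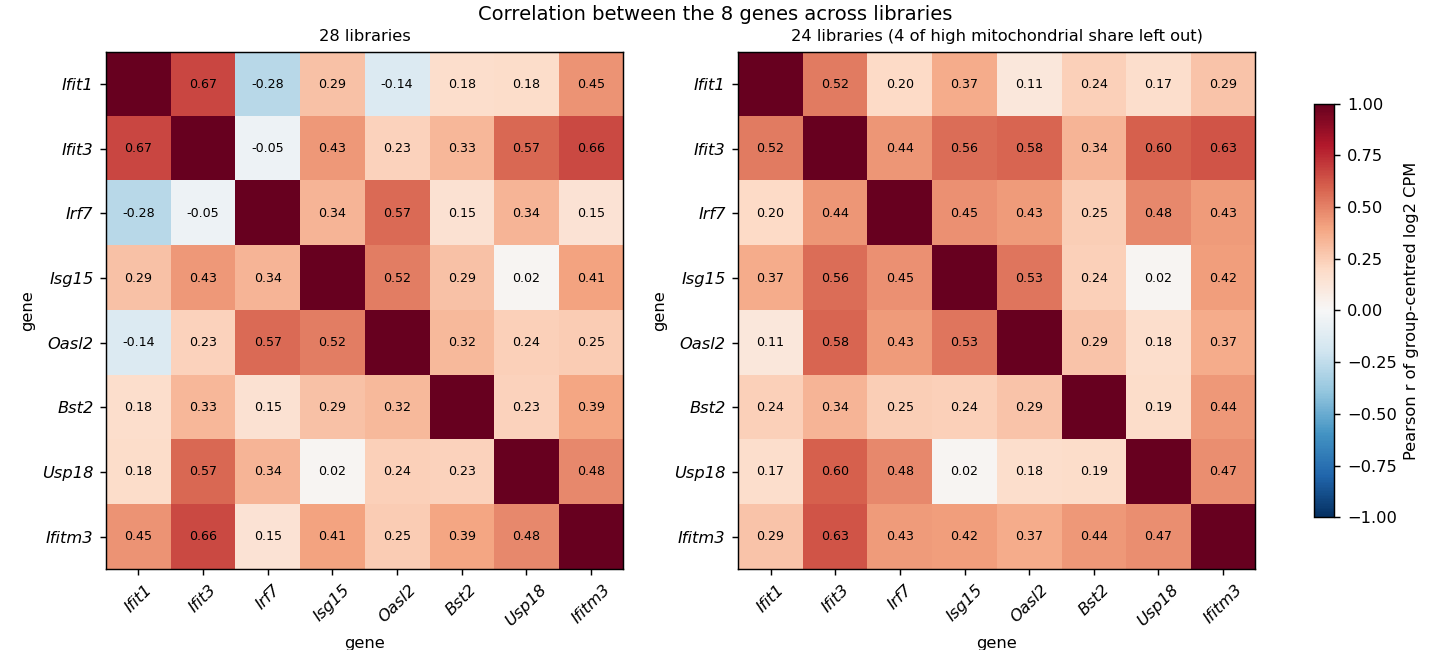
Pearson r between the 8 genes (both axes) of log2 CPM with group means removed, in 28 libraries (left) and in the 24 without high mitochondrial share (right); red is positive and blue negative. Ifit3 with Ifitm3 is at 0.66 on the left and 0.63 on the right, and the negative values of Ifit1 with Irf7 and Oasl2 on the left are positive on the right.

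**Figure D4:**
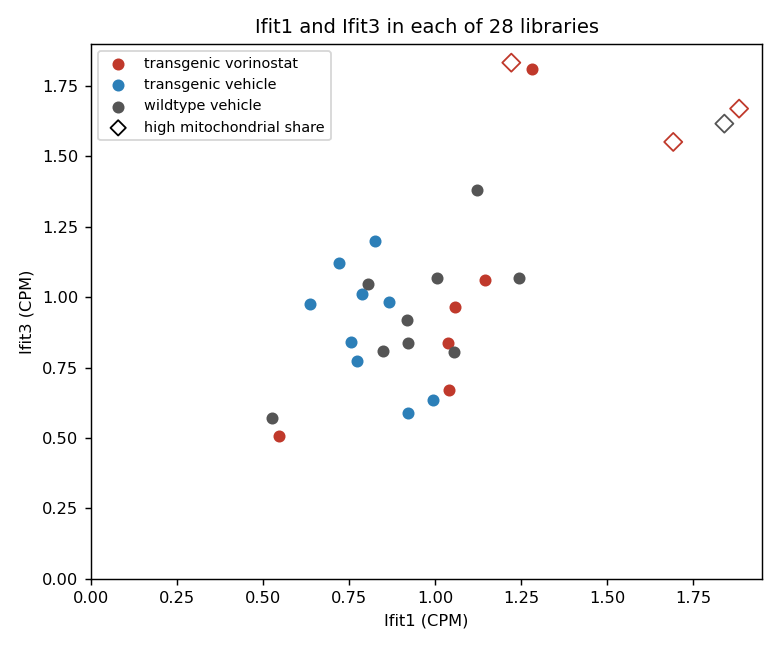
Ifit1 (x axis, CPM) against Ifit3 (y axis, CPM), 1 point per library and coloured by group, with open diamonds for the 4 libraries of high mitochondrial share. The diamonds sit at 1.22 to 1.88 CPM of Ifit1 and 1.55 to 1.83 CPM of Ifit3, and without them r of the group-centred log2 values is 0.52.

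The genes whose group-centred pattern was most like the mean of the 8 members were found over the 28 libraries by Pearson r, as a description. Among the interferon lists these were Irgm1, a guanosine triphosphatase, at r = 0.69, the class I genes H2-K1 at 0.59 and H2-D1 at 0.55, and Ifitm2 at 0.56, which shares stretches with Ifitm3. After them came Gbp2, Ifi35, Ifnar2, B2m, Parp14 and Iigp1 at 0.49 to 0.45. Outside the lists, Vim, the intermediate filament vimentin, had 0.75, Tnnt1, a troponin, 0.74 and Ly6c1, a surface protein of mouse brain endothelium, 0.70. Gm26532, Higd1b, D730003I15Rik, Slc25a45, Id1, Ly6a and Ppic had 0.70 to 0.67. The median r was 0.22 over the 81 other interferon genes and 0.00 over all 17001 other genes, and in the 24 libraries Irgm1 had 0.76 and Vim 0.72.

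Each of the 8 genes was set against the mean log2 CPM of 10 marker lists, with group means removed, in relations added after values were seen. Of these 80 relations 9 passed by Pearson over 28 libraries and 6 over the 24, with 3 in both (permutation test, adjusted over the 80). Here the 2 farthest libraries are those farthest from the median of the marker mean. Isg15 with pericyte and smooth muscle markers had r = 0.68 and rho = 0.67 (permutation adjusted p = 0.0064 and 0.00507), with 0.62 without the 2 farthest libraries and 0.70 in the 24. Isg15 with endothelial markers had r = 0.55 and rho = 0.69 (permutation adjusted p = 0.0157 and 0.00507), with 0.72 and 0.78 likewise. Ifitm3 with astrocyte markers had r = 0.62 and rho = 0.66 (permutation adjusted p = 0.0076 and 0.00507), with 0.62 and 0.66 likewise. These are the 3 relations that passed in both sets.

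Irf7 and Oasl2 also went with endothelial markers over 28 libraries, at r = 0.64 and 0.66 (permutation adjusted p = 0.0112 and 0.0088). Their rho was 0.56 and 0.49 (permutation adjusted p = 0.0443 and 0.0821), so Oasl2 did not pass by Spearman. In the 24 libraries they had r = 0.45 and 0.52 (permutation adjusted p = 0.172 and 0.0756). Ifit1 went with microglia markers at r = 0.61 and with astrocyte markers at 0.59 (permutation adjusted p = 0.0088 and 0.016). Its rho was 0.48 and 0.33 (permutation adjusted p = 0.0821 and 0.277), so neither relation passed by Spearman. In the 24 libraries Ifit1 had r = 0.32 and 0.33 (permutation adjusted p = 0.458 and 0.418). Ifitm3 with microglia markers had r = 0.59 and rho = 0.54 (permutation adjusted p = 0.0157 and 0.0443), with r = 0.47 in the 24. Ifit3 had r = -0.52 and rho = -0.54 with CA1 pyramidal markers (permutation adjusted p = 0.0418 and 0.0443), with r = -0.33 in the 24. In the 24 libraries alone, Bst2 passed with oligodendrocyte markers at r = 0.64, Ifit3 with fibroblast markers at 0.66 and Irf7 with pericyte and smooth muscle markers at 0.59 (permutation adjusted p = 0.0141, 0.0101 and 0.0377). Whether the members are made in these cells was not tested.

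**Figure D5:**
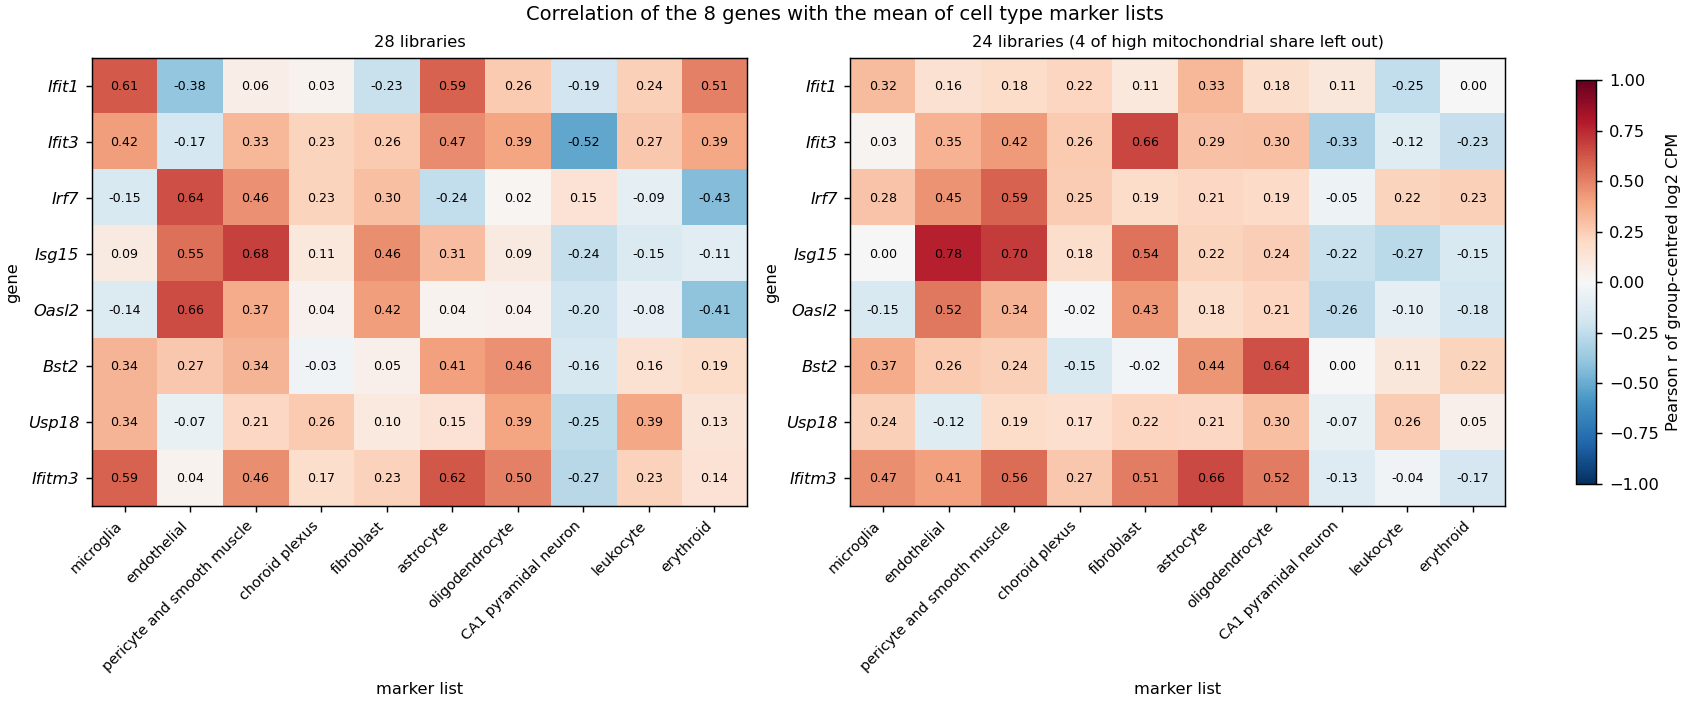
Pearson r of each of the 8 genes (rows) with the mean of each of 10 cell type marker lists (columns), log2 CPM with group means removed, in 28 libraries (left) and in the 24 without high mitochondrial share (right). Isg15 with endothelial markers is at 0.55 on the left and 0.78 on the right, while Ifit1 with microglia markers is at 0.61 and 0.32.

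In the authors' deposited table of coexpression modules, the 8 genes lay in 5 modules. Ifit1 and Oasl2 were in the module named purple, which held 2666 genes, with membership scores of 0.502 and 0.396 in the authors' deposited table. Ifit3 and Usp18 were in black (1924 genes), with scores of 0.777 and 0.461 in the authors' deposited table. Isg15 and Bst2 were in yellow (1116 genes) at 0.521 and 0.520, Irf7 in green (2971 genes) at 0.437 and Ifitm3 in lightgreen (501 genes) at 0.591, again in the authors' deposited table. The deposited p-value of the score ran from 4.45e-07 for Ifit3 to 0.0301 for Oasl2 in the authors' deposited table.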

How the data were processed

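Polyadenylated RNA of CA1 was sequenced as 50 bp single-end reads from unstranded TruSeq v2 libraries, per the labels. The authors deposited whole-number counts per gene. Per the submitters' processing notes, the mm10 genome was used with STAR 2.5.2b, with featureCounts from Subread 1.5.1 and with FastQC 0.11.5; the annotation release, strand setting and treatment of multiply matching reads are not stated in labels or headers. Besides counts, the authors deposited mixed-model adjusted expression values, read as log2, and for module membership a score and its p-value.

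Counts were tested with edgeR 4.0.16 (R 4.3.3; quasi-likelihood, TMM, 1 fit over 28 libraries, minimum count 10, minimum total 15), with Benjamini-Hochberg adjustment over 17009 genes and a threshold of 0.05, after the scripts were tested on simulated data. DESeq2 1.42.0, voom and limma 3.58.1 were alternatives. Within groups, chi-square per degree of freedom between 117 library pairs was 3.37 to 87.4, so none were merged. The labels do not say that replicate numbers of the titles pair libraries, and the main fit took no pairs. Of 27 same-numbered pairs of deviations 7 correlated above 0.1, with a median of 0.060 against -0.014 for different numbers. Whether the numbers mark a pairing is therefore not settled here.

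The 8 members and all gene lists were chosen with earlier results of these data known. Other genes are named if they passed the threshold, were among the 3 smallest p of the interferon lists in a comparison, or were among the 10 most like the members within or outside those lists. The ligands, with no such gene, are given as counts. The 4 negative regulators tested, also with no such gene, had 2 positive and 2 negative log2 fold changes in each comparison. Marker lists are given as counts or medians, and not all of them in every comparison. The marker-list correlations were added after values were seen. A floor of 3 counts was used, which covers counting error only; the 95% intervals of fold changes are edgeR's and include the spread between libraries.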

Additional observations from a re-analysis of the deposited data

Results flagged for a closer look

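Each of the 8 genes was looked at in each of the 3 groups for a library far from its group, 24 looks in all, of which chance flags about 1 in 20. One library (1) was flagged. Ifit1 in transgenic vorinostat 2 was at 0.548 CPM, the lowest of the 9 vorinostat libraries, with a gap to the next that was 0.506 of the group's range of log2 CPM. The same library had the lowest sum of the 8 genes. Without it, the log2 fold change of Ifit1 was 0.67 for vorinostat against transgenic vehicle, against 0.58 with it.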

How the results depend on the processing

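No member passed the threshold under any alternative on counts or without any 1 library. Outside the runs without 1 library, values for single genes, for pairs and for counts of positive interferon genes were compared with those reported. Of these, 321 kept direction and side of the threshold or, for the counts, stayed close, and 33 turned their sign. A further 3 passed the threshold where the reported value did not, and 6 no longer passed it. With the runs without 1 library 72 turned, each with a size of at most 0.16 in the values reported. Of all genes, DESeq2 called 1 for vorinostat against transgenic vehicle, and for vorinostat against wildtype vehicle the endothelial covariate called 3 and the block on the replicate numbers of the titles called 1. Leaving out 1 library gave 0 to 1 gene for vorinostat against transgenic vehicle (1 without transgenic vorinostat 3) and 0 to 3 for vorinostat against wildtype vehicle (3 without wildtype vehicle 2, 1 without wildtype vehicle 5). With limma on the authors' adjusted values it was 398 genes for transgenic against wildtype vehicle, 40 for vorinostat against transgenic vehicle and 2507 with 3 members for vorinostat against wildtype vehicle. Without centring on group means 3 pairs of members correlated, against 6. The cause of these differences was not tested.

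For transgenic against wildtype vehicle, signs turned for Oasl2 with RLE factors (-0.000111), for Isg15 and Oasl2 with upper-quartile factors (-0.00544 and -0.00608), with no filter (-0.000830 and -0.00210) and with only the groups compared (-0.00428 and -0.00497), and for Isg15 with DESeq2 (-0.00137), voom (-0.010) and an Xist covariate (-0.016). The microglia covariate gave Oasl2 -0.00957, and the choroid plexus covariate gave Irf7 -0.010, Isg15 -0.027 and Oasl2 -0.0063. Without the 4 libraries of high mitochondrial share Irf7 had -0.040, Isg15 -0.025 and Oasl2 -0.091, and Ifitm3 had -0.071 for vorinostat against wildtype vehicle. The replicate block by title number gave Isg15 -0.045 and Oasl2 -0.00157, and that by description number gave Bst2 0.039, and for vorinostat against wildtype vehicle Irf7 0.012 and Bst2 0.030. The labels do not say that the numbers pair libraries, no member was called with either block, and Ifit1 for vorinostat against transgenic vehicle had 0.57 and 0.60. On the authors' values, Ifit3 had 0.069, Irf7 -0.038 and Isg15 -0.023 for transgenic against wildtype vehicle, Irf7 0.041, Isg15 0.064, Bst2 0.086 and Ifitm3 0.037 for vorinostat against transgenic vehicle, and Irf7 0.0036, Isg15 0.041 and Bst2 0.043 for vorinostat against wildtype vehicle. Leaving out 1 library, values for transgenic against wildtype vehicle ran from -0.042 to 0.10 for Irf7, -0.073 to 0.067 for Isg15, -0.092 to 0.080 for Oasl2 and -0.041 to 0.16 for Usp18, and for vorinostat against transgenic vehicle from -0.12 to 0.046 for Bst2 and -0.095 to 0.037 for Ifitm3. A member had 6 to 173 counts in a library, and counting error was near or above the whole spread within groups for Irf7 and Usp18. For Isg15 it gave an SD of 0.294 where the SD within groups was 0.333.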
